A study of Papio papio with 23 samples.

Results

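The genes described here encode the mitochondrial ribosomal proteins, the protein subunits of the ribosome inside mitochondria. They were chosen by name, as every gene whose array annotation reads MRPL or MRPS, a number and at most a letter, with a requirement for detectable signal. The array carried 76 such genes, and 71 of them had a probe well above background on at least 4 of the 23 arrays, out of 21130 genes that met the same requirement. MRPL1, MRPL14, MRPL36 and MRPL44 were well above background on 0 arrays and MRPL30 on 1, so these 5 were not tested. Of the 71 genes, 69 were well above background on all 23 arrays, and none was saturated. MRPL48 was well above background on 19 arrays. MRPS5 was well above background on 10 arrays, none of them a day 1 array. It is not described singly, but its measured values are in the medians, counts and plots of the 71 genes.

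The samples were whole blood of adult male Papio papio baboons (8.1 ± 3.3 years old in the labels), drawn into PAXgene tubes and hybridised to human Agilent 1-colour arrays, with 1 array per sample. Baboons of group H2-3, which later developed medium to severe haematological acute radiation syndrome (HARS, the failure of blood cell production that follows irradiation), were sampled on day 1 and on day 2 (n = 5 on each day). Baboons of group H1-2, with a later low to medium HARS, were sampled on the same days (n = 4 on each day). Group H0 was blood taken before irradiation (n = 5). All irradiated baboons received gamma rays from 60Co to the total or a part of the body, at an equivalent whole-body dose of 2.5 or 5 Gy, and the labels do not tie a dose or a field to a sample. The labels do not say whether the H0 baboons were among those irradiated. Replicate numbers within a category are baboon numbers from the titles, so by the labels replicate 1 of H2-3 on both days is the same animal.

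Mitochondrial ribosomes translate the few messages encoded by mitochondrial DNA, all of them for subunits of the respiratory chain and the ATP synthase. Their RNA comes from mitochondrial DNA, but every protein of the particle is encoded in the nucleus, made in the cytosol and imported. The small subunit binds the messenger RNA and decodes it, and the large subunit joins the amino acids and holds the exit tunnel. Many of the proteins have counterparts in bacterial ribosomes, and others are found only in mitochondria. Of the 71 genes, 44 encode proteins of the large subunit and 26 of the small subunit, and 42 have a bacterial counterpart while 28 are mitochondria-specific. MRPS30 and MRPS18A carry small subunit names but sit in the large subunit and were counted there. MRPS36, which has been assigned to an enzyme complex of the citric acid cycle, was placed in neither subunit.

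Each value rests on an array probe of 60 bases designed on the human genome, and letters that differ in the baboon could lower a probe's signal. The probes of members named most often below are shown here as the letters that were measured, with positions on hg19 as the files give them. Those of 5 members are shown whole. MRPS33's probe spans an exon junction, so its genomic span is longer than the probe.
MRPS30, chr5:44812022-44812081, plus strand: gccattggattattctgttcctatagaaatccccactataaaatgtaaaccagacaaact
MRPS21, chr1:150280584-150280643, plus strand: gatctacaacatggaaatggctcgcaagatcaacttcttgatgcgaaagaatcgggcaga
MRPS33, chr7:140706316-140710258, minus strand: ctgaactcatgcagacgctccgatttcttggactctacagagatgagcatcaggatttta
MRPL11, chr11:66204614-66204673, minus strand: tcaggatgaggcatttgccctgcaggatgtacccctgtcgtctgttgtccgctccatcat
MRPS15, chr1:36921894-36921953, minus strand: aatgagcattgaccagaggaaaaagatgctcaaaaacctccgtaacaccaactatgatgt

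For MRPS9 and MRPS25, whose changes were among the largest, stretches of 30 bases from their probes are shown.
MRPS9, chr2:105716338-105716367, plus strand: gtgagatggatttatttttaaatgctactt
MRPS25, chr3:15090125-15090154, minus strand: ggtcattaaaataattgattatactttcct

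MRPS16, a small subunit protein with a bacterial counterpart, had a pair of probes well above background on all 23 arrays, with very different signals. The probe used here averaged 10.12 on the log2 scale relative to the array's 75th percentile of signal, and the other averaged -0.01. On day 1 in H2-3 the changes against H0 were 0.22 for the used probe and -0.09 for the other, and neither passed the test (adjusted p = 0.424 and 0.727, limma).

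All levels below are log2 of the scanner's processed signal minus the 75th percentile of its array, for the brightest probe of a gene, so a level of 0 is the array's 75th percentile. Changes are differences of mean levels (log2), with their standard error (SE), and adjusted p-values are from limma over all 21130 genes with a threshold of 0.05. Levels of different genes come from different probes and were not set against each other. Between 41.4 and 51.3% of the probes were well above background on an array. The number of arrays limits the precision. In whole blood, fewer cells of a type and less RNA per cell cannot be told apart. Arrays of day 2 were scanned on another scan day than those of day 1, and H0 arrays were scanned with day 1 (replicates 3 to 5) or on a day of their own (replicates 1 and 2), so a difference between day 2 and H0 or day 1 and the scan day cannot be told apart.

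On day 1 most mitochondrial ribosomal protein genes lay below their H0 level in both categories. In H2-3 the genes MRPS9, MRPL4, MRPS25, MRPS21 and MRPS30 fell most, by 0.92 to 1.28 on the log2 scale. MRPL33 was the only member past the threshold that rose there. In H1-2 the members past the threshold that fell most were MRPS9, MRPS33, MRPS21, MRPL11 and MRPS14, by 0.68 to 0.95. In H2-3, 18 members fell, 1 rose and 52 did not pass the test, beside 28.4% of all genes called, 13.5% in the lower and 15% in the higher direction. In H1-2, 12 fell and 0 rose, beside 8.59% of all genes called, 4.42% lower and 4.18% higher. The median change of the 71 members was -0.24 in H2-3 and -0.36 in H1-2, against medians over all genes of 0.14 and 0.09. Over the 69 members well above background on all arrays it was -0.23 and -0.36. The values lay below 0 for 53 members in H2-3 and for 63 in H1-2. On 12 members every H2-3 array lay below every H0 array, beside 9.27% of all genes, and on 13 members every H1-2 array did, beside 5.4%. Unadjusted, 27 members had p under 0.05 in H2-3, beside 38.8% of all genes, and 25 in H1-2, beside 26.8%.

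**Figure D1:**
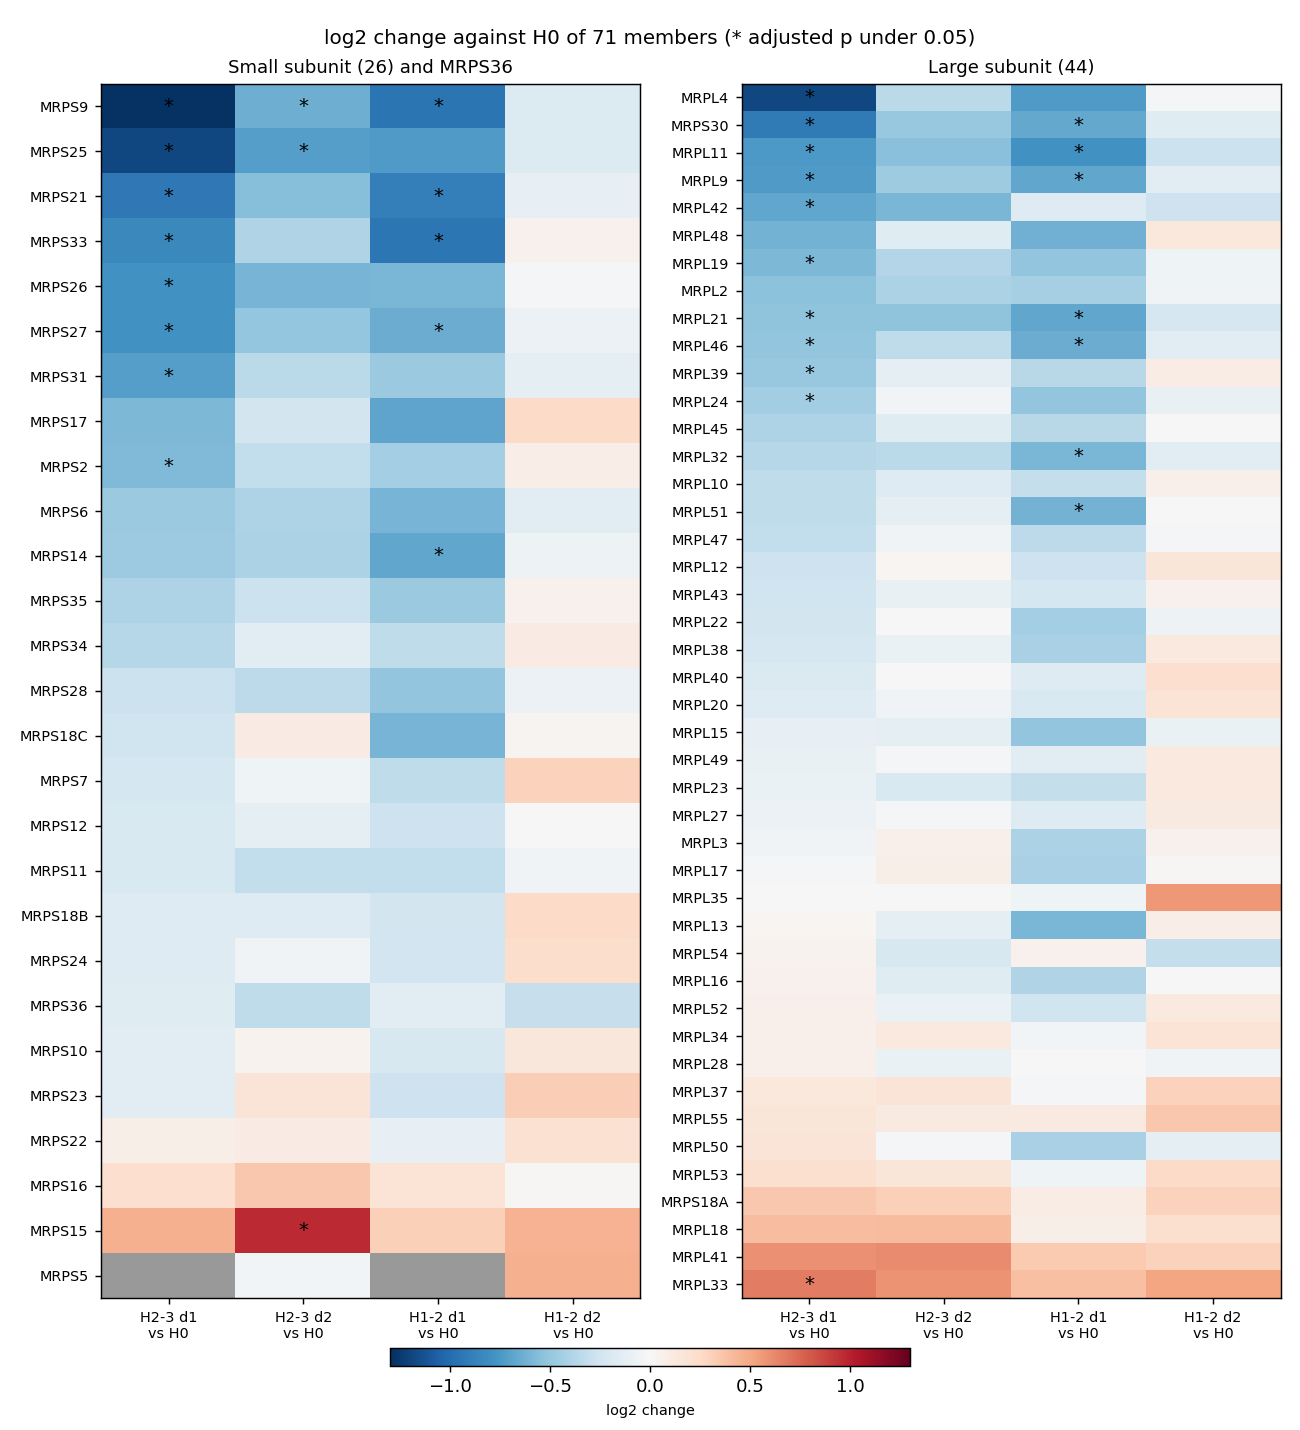
Change against H0 of each of the 71 members (colour, log2, blue below and red above 0) in H2-3 day 1, H2-3 day 2, H1-2 day 1 and H1-2 day 2, by subunit and sorted by the H2-3 day 1 change, with stars for an adjusted p under 0.05. Blue prevails in the day 1 columns, with medians of -0.24 in H2-3 and -0.36 in H1-2, and grey cells mark MRPS5, which was not well above background on any day 1 array.

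The median level of the 71 members was taken on each array. It was 1.99, 1.92, 1.68, 1.68 and 2.14 on the H2-3 day 1 arrays and 1.71, 2.09, 2.08, 2.07 and 2.14 on the H2-3 day 2 arrays. It was 1.61, 1.80, 1.79 and 1.79 on the H1-2 day 1 arrays and 2.27, 1.84, 2.27 and 2.25 on the H1-2 day 2 arrays. On the H0 arrays it was 2.21, 2.17, 2.11, 2.16 and 2.27. All 4 H1-2 day 1 arrays lay below all 5 H0 arrays, whereas 1 of the 5 H2-3 day 1 arrays lay within the H0 range. Each of the day 2 groups held 1 array below its other arrays, replicate 1 of H2-3 and replicate 2 of H1-2.

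**Figure D2:**
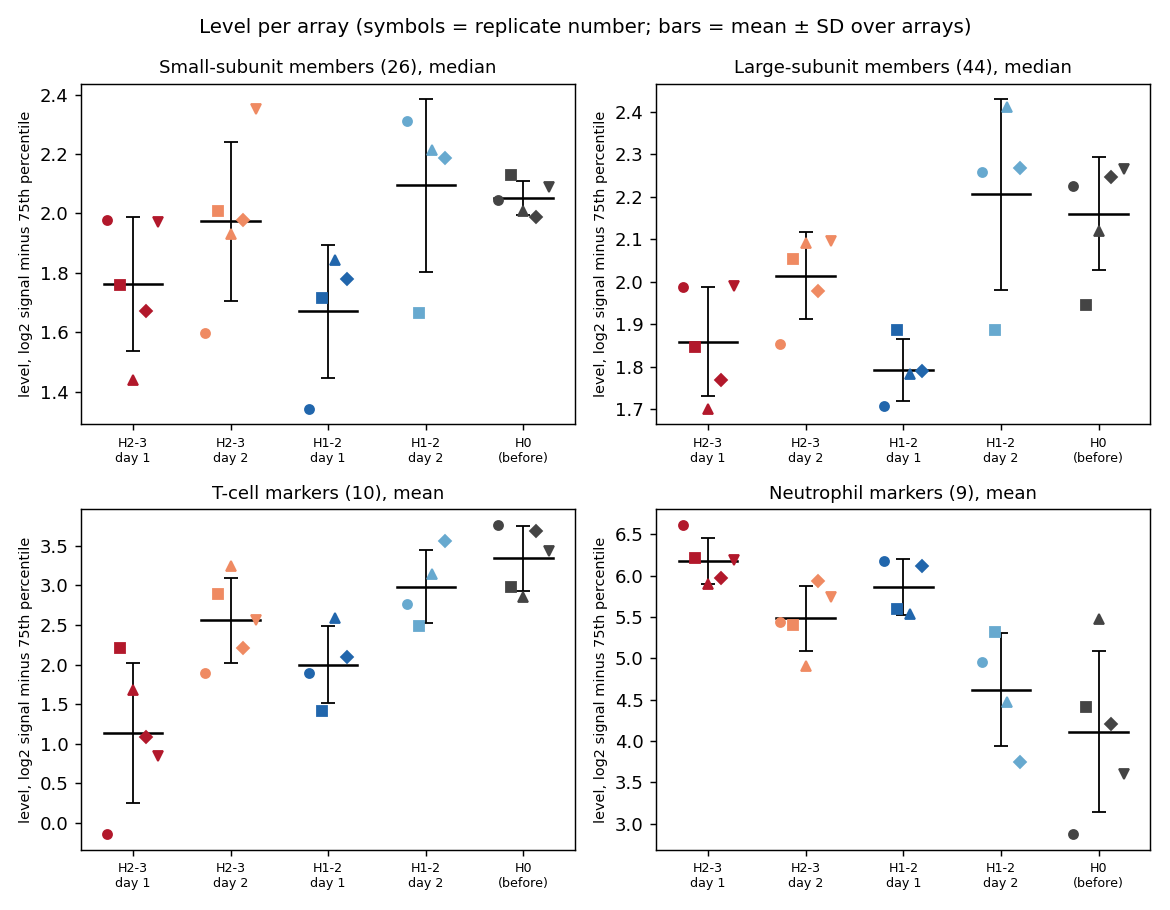
Level per array (log2 signal relative to the array's 75th percentile) of the small-subunit and large-subunit members (medians) and of 10 T cell and 9 neutrophil markers (means), from H2-3 day 1 on the left to H0 on the right. Symbols are replicate numbers and bars are the mean ± SD over arrays, and small-subunit medians lie at 1.44 to 1.98 in H2-3 and 1.34 to 1.84 in H1-2 on day 1, against 1.99 to 2.13 in H0.

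The small subunit gene MRPS9 had the largest fall of any member on day 1 in both categories. In H2-3, 8 of the 26 small subunit genes fell and 0 rose (30.8%, beside 28.4% of all genes, 13.5% lower and 15% higher). The median change was -0.39, and 23 of the 26 values were below 0. The arrays' medians over these 26 genes were 1.44 to 1.98 in H2-3 and 1.34 to 1.84 in H1-2 on day 1, against 1.99 to 2.13 in H0. In H1-2, 5 fell (19.2%, beside 8.59% of all genes, 4.42% lower and 4.18% higher), the median was -0.49 and 24 were below 0. MRPS9, whose bacterial counterpart reaches with its tail towards the transfer RNAs, had levels of 0.44, 0.96, 0.70, 0.38 and 0.61 in H2-3 on day 1, against 2.07, 1.92, 1.22, 2.02 and 2.27 in H0. The groups did not overlap, and the change of -1.28 (SE 0.21) passed the test (adjusted p = 0.000268). In H1-2 the day 1 levels were 0.48, 1.04, 1.35 and 0.93, 3 of the 4 below every H0 array. The change there was -0.95 (SE 0.23, adjusted p = 0.0194).

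MRPS25, a mitochondria-specific protein, had levels of -2.05, -2.80, -2.56, -2.22 and -1.83 in H2-3 on day 1, against -1.18, -1.17, -1.46, -1.19 and -0.56 in H0. Every H2-3 array lay below every H0 array, and the change was -1.18 (SE 0.24, adjusted p = 0.00105). In H1-2 the levels were -1.76, -1.76, -1.96 and -1.90, also below all H0 arrays, but MRPS25 was not among the genes that passed. MRPS21, the counterpart of a bacterial protein near the messenger RNA's exit, had levels of 1.96, 1.59, 1.46, 1.06 and 1.43 in H2-3 and 1.16, 1.41, 1.89 and 1.71 in H1-2, against 2.44, 2.44, 2.26, 2.62 and 2.38 in H0. Both groups lay below H0 without overlap. The changes were -0.93 in H2-3 (SE 0.20, adjusted p = 0.00162) and -0.88 in H1-2 (SE 0.21, adjusted p = 0.0193).

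MRPS33, another mitochondria-specific protein, had levels of 0.28, 0.22, -0.15, -0.07 and -0.02 in H2-3 and -0.80, -0.04, 0.68 and -0.02 in H1-2 on day 1, against 0.98, 0.98, 0.78, 1.02 and 0.69 in H0. Neither group overlapped H0, though the highest H1-2 array, at 0.68, lay next to the lowest H0 array, at 0.69. The changes were -0.84 in H2-3 (adjusted p = 0.0136) and -0.93 in H1-2 (adjusted p = 0.0325). MRPS27, a protein of the pentatricopeptide repeat kind that binds RNA, had levels of -0.05, 0.14, -0.12, -0.20 and 0.45 in H2-3 and -0.06, 0.32, 0.32 and 0.17 in H1-2, against 0.81, 0.80, 0.43, 1.05 and 1.08 in H0. It fell in both, by 0.79 in H2-3 (adjusted p = 0.00232) and by 0.64 in H1-2 (adjusted p = 0.0378).

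The remaining small subunit genes that fell in H2-3 on day 1 were MRPS26, by 0.79, MRPS31, by 0.72, and MRPS2, by 0.58. MRPS26 and MRPS31 are mitochondria-specific, and MRPS2 has a bacterial counterpart. MRPS26 had levels of 1.88, 2.13, 2.10, 2.11 and 2.80 in H2-3, against 2.92, 2.85, 2.56, 3.53 and 3.11 in H0. Replicate 5 of H2-3 stood above the other 4 there and was the array that overlapped H0. In H1-2 the fifth gene that fell was MRPS14, which has a bacterial counterpart, with levels of 1.00, 1.63, 1.26 and 1.18 against 1.89, 2.17, 1.91, 1.96 and 1.81 in H0. Its change was -0.68 (SE 0.20, adjusted p = 0.0378).

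In the large subunit, 10 of 44 genes fell and 1 rose in H2-3 on day 1 (25%, beside 28.4% of all genes), with a median of -0.18. In H1-2, 7 fell and 0 rose (15.9%, beside 8.59%), with a median of -0.35, and 38 values were below 0. Falls alone were called for 13.5% of all genes in H2-3 and 4.42% in H1-2. MRPL4, whose bacterial counterpart lines the exit tunnel, had levels of 1.27, 1.38, 1.35, 0.77 and 1.48 in H2-3, against 2.94, 2.36, 1.90, 1.99 and 3.01 in H0. The groups were apart, and the change was -1.19 (SE 0.22, adjusted p = 0.000544). In H1-2 its levels of 1.64, 1.78, 1.77 and 1.63 also lay below every H0 array. The change of -0.73 there did not pass (adjusted p = 0.0512).

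MRPS30, mitochondria-specific and in the large subunit despite its name, had levels of -1.40, -1.14, -1.01, -1.23 and -0.79 in H2-3 and -1.23, -0.83, -0.57 and -0.80 in H1-2 on day 1, against -0.13, -0.47, -0.27, -0.06 and -0.04 in H0. Both groups lay below H0 on every array. The changes were -0.92 in H2-3 (SE 0.18, adjusted p = 0.000895) and -0.67 in H1-2 (adjusted p = 0.0370). MRPL11, whose bacterial counterpart forms the base of the stalk where translation factors dock, had levels of 2.06, 1.77, 1.47, 1.60 and 2.14 in H2-3 and 1.38, 1.78, 1.95 and 1.94 in H1-2, against 2.73, 2.52, 2.30, 2.70 and 2.50 in H0. It fell by 0.74 in H2-3 (adjusted p = 0.00877) and by 0.79 in H1-2 (adjusted p = 0.0298), without overlap in either.

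MRPL9, which has a bacterial counterpart, fell by 0.73 in H2-3 and by 0.67 in H1-2. MRPL21 fell by 0.53 and 0.68 and MRPL46 by 0.51 and 0.65 in the same order. MRPL19, MRPL24, MRPL39 and MRPL42 fell in H2-3, by 0.45 to 0.68, and MRPL32 and MRPL51 fell in H1-2, by 0.59 and 0.61. These genes hold proteins with bacterial counterparts (MRPL19, MRPL21, MRPL24 and MRPL32) and mitochondria-specific ones (MRPL39, MRPL42, MRPL46 and MRPL51). By class, 9 of the 42 genes with a bacterial counterpart fell in H2-3 and 7 in H1-2, with medians of -0.23 and -0.42. Of the 28 mitochondria-specific genes, 9 and 5 fell, with medians of -0.29 and -0.34. Counting both directions, 23.8 and 16.7% of the genes with a bacterial counterpart and 32.1 and 17.9% of the mitochondria-specific ones passed, beside 28.4% of all genes in H2-3 and 8.59% in H1-2.

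MRPL33, the counterpart of a small bacterial large subunit protein, was the member that rose in H2-3 on day 1. Its levels were 2.31, 2.15, 2.32, 2.19 and 1.84 in H2-3, against 1.00, 1.72, 1.64, 1.18 and 1.96 in H0, so that 4 of 5 arrays lay above every H0 array. The change was 0.66 (SE 0.21, adjusted p = 0.0219). It did not pass in 5 of 12 alternative settings, which were scaling to probes detected on every array, quantile normalisation, the deposited value table and blocks for slide and for scan day. MRPL41, a mitochondria-specific protein also linked to growth arrest, had a change of 0.59 that did not pass (adjusted p = 0.0550).

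**Figure D3:**
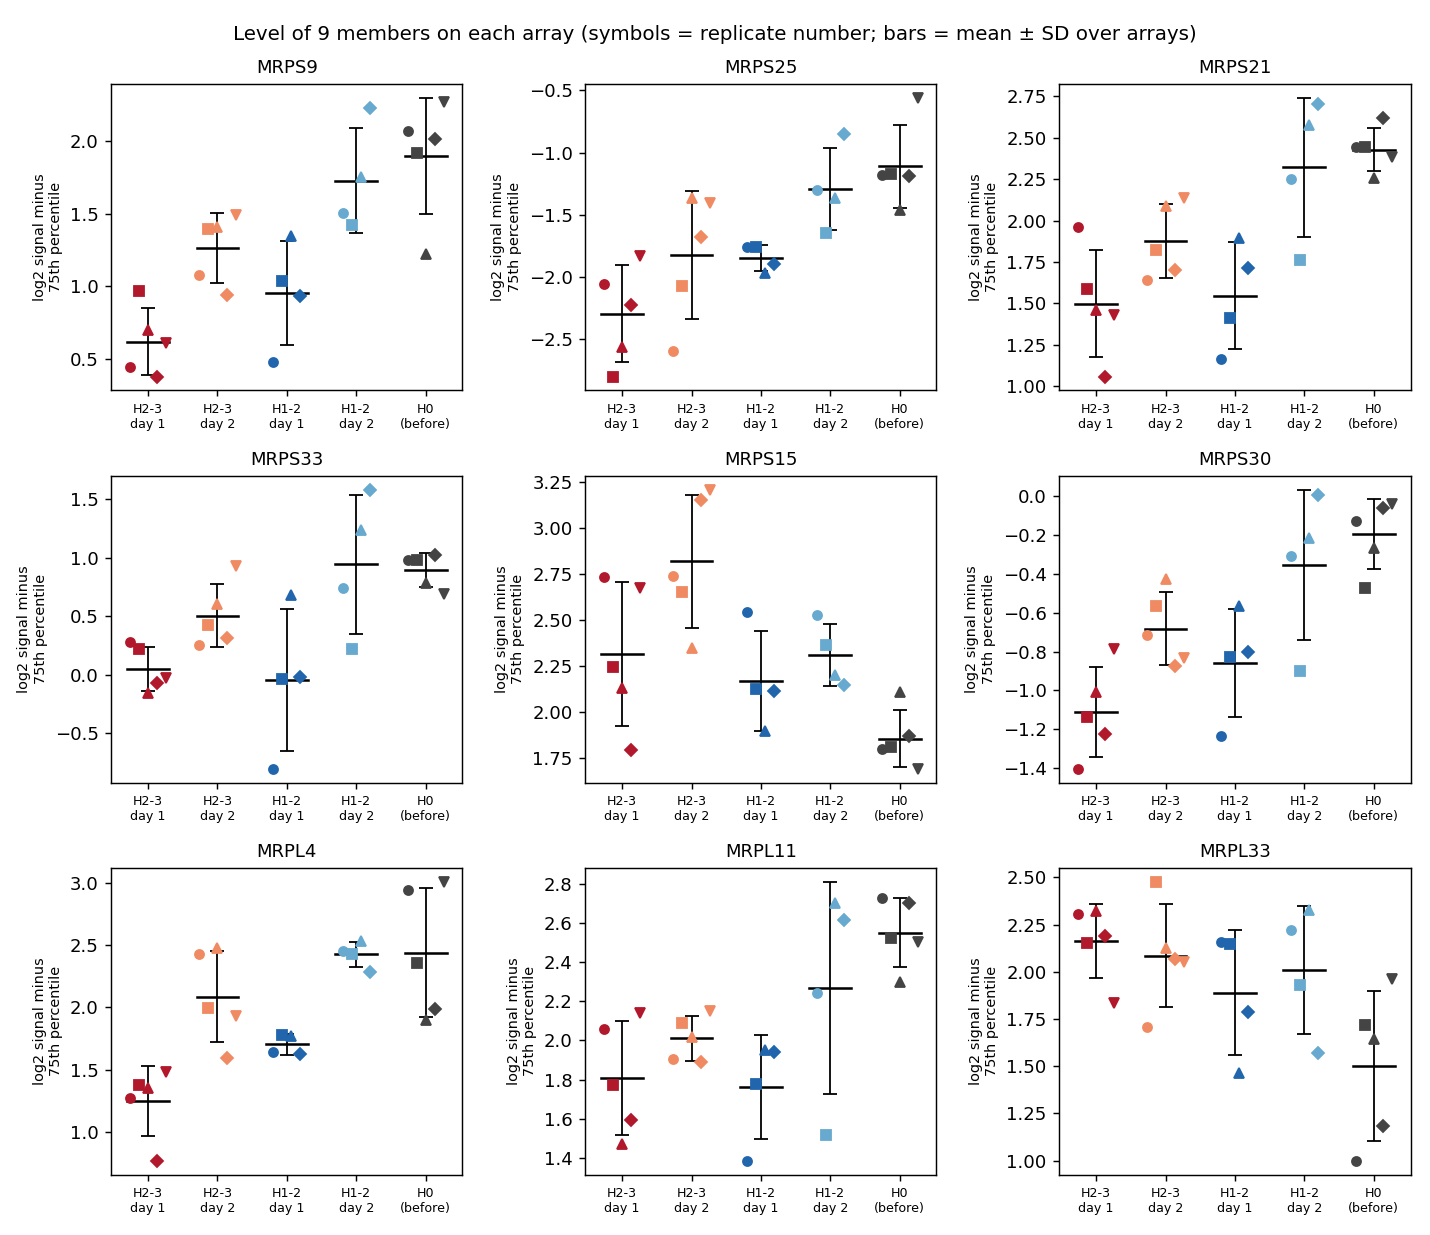
Levels of 9 members on each array (log2 signal relative to the array's 75th percentile), from H2-3 day 1 on the left to H0 on the right, with a symbol per replicate number and bars for the mean ± SD over arrays. MRPS9 lies at 0.38 to 0.96 in H2-3 on day 1, against 1.22 to 2.27 in H0, and MRPS15 at 2.34 to 3.21 in H2-3 on day 2, against 1.69 to 2.11 in H0.

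The H1-2 day 1 count rested on single arrays. It was 2, 5, 3 and 1 without H0 replicates 1, 2, 4 and 5, beside 2.35, 7.07, 3.87 and 2.57% of all genes called. Without H1-2 replicates 1, 2 and 4 it was 0, 2 and 4, beside 0.0189, 1.9 and 4.22%. The median change stayed between -0.42 and -0.29. Of the 12 calls, those of MRPS21 and MRPS9 held in 7 of the 9 fits with an array left out, MRPL11 in 4, and the others in 1 to 3. The H2-3 day 1 count stayed between 14 and 19 when each array was left out, beside 23 to 30.9% of all genes called. Of its calls MRPL24 held in 2 of 10 such fits, MRPL39 and MRPL42 in 3, MRPL19 and MRPL21 in 4, MRPL46 in 5, MRPL33 in 7 and the other 12 in all 10. With slide as a block the count was 2 in H2-3 and 0 in H1-2, beside 5.26 and 0.0426% of all genes. With scan day as a block it was 12 and 0, beside 20.7 and 0.0189%. H0 shared a slide with only 1 irradiated array, replicate 1 of H2-3 on day 1, and the median change between these 2 arrays was -0.30. Within the scan day that held H0 replicates 3 to 5 and all day 1 arrays, the median change was -0.26 in H2-3 and -0.42 in H1-2, against 0.20 and 0.13 over all genes. MRPS9 and MRPL4 passed in H2-3 under every alternative and every left-out array, but slide as a block adds no replication. There the change is the difference between H2-3 replicate 1 and H0 replicate 5 alone. Their levels were 0.44 and 2.27 for MRPS9, and 1.27 and 3.01 for MRPL4. The H2-3 median lay below that of all genes under another scaling too: scaled to probes detected on every array it was -0.43, against -0.05 over all genes.

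On day 2, 3 members passed in H2-3 and 0 in H1-2. In H2-3, MRPS15 rose and MRPS25 and MRPS9 fell, beside 14.8% of all genes called, 10.3% higher and 4.48% lower. The median change of the members was -0.13, against -0.03 over all genes, and 53 of 71 values were below 0. The groups did not overlap for 1 member that was higher, beside 5.66% of all genes, and for 4 that were lower, beside 2.96%. Unadjusted, 17 members had p under 0.05, beside 35%. In H1-2, 0 members passed in limma, beside 0% of all genes, and 2 had an unadjusted p under 0.05, beside 10.5% of all genes. The median there was 0.05. The smallest p-values there belonged to MRPL33, at 0.51 (adjusted p = 0.422), MRPS15, at 0.45, and MRPS36, at -0.30. A test of the difference between the categories' changes from day 1 to day 2 called 0 members and 0 genes in limma, and 1.99% of all genes had an unadjusted p under 0.05 in it.

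MRPS15, the counterpart of a bacterial protein that binds the ribosomal RNA early in assembly, had levels of 2.74, 2.65, 2.34, 3.15 and 3.21 in H2-3 on day 2, against 1.80, 1.81, 2.11, 1.87 and 1.69 in H0. Every H2-3 array lay above every H0 array. The mean was 2.82 ± 0.36 in H2-3 and 1.85 ± 0.16 in H0 (SD, n = 5 each), and the change was 0.97 (SE 0.20, adjusted p = 0.00865). It passed under all 11 alternatives and with each of the 10 arrays left out. On day 1 its levels were 2.73, 2.24, 2.13, 1.79 and 2.67 in H2-3 and 2.54, 2.12, 1.89 and 2.11 in H1-2. In H1-2 on day 2 they were 2.52, 2.36, 2.20 and 2.14, above all H0 arrays, without passing the test.

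MRPS9 had levels of 1.07, 1.39, 1.41, 0.94 and 1.49 in H2-3 on day 2, overlapping H0, with a change of -0.64 (SE 0.21, adjusted p = 0.0483). MRPS25 had levels of -2.59, -2.07, -1.37, -1.68 and -1.41, with a change of -0.71 (SE 0.24, adjusted p = 0.0476). With the baboon as a replicate block MRPS25 no longer passed (adjusted p = 0.0518). Both calls were near the threshold: when each of the 10 arrays was left out in turn, MRPS9 passed 1 time and MRPS25 passed 2 times. The count of 3 was 1 without H0 replicates 1, 2 or 4 or H2-3 replicates 2, 4 or 5, beside 3.92 to 11.6% of all genes. It was 6 without H0 replicate 3, beside 18.2%. Under other scalings it was higher, 13 when scaled to probes detected on every array, beside 17% of all genes called, and 10 with quantile normalisation, beside 12.6%.

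Between days the median change of the members was 0.43 in H1-2 and 0.13 in H2-3, day 2 over day 1, against -0.08 and -0.03 over all genes. In H1-2, 65 of 71 values were above 0, and 0 members passed the test in limma, beside 0% of all genes. Unadjusted, 28 members had p under 0.05 there, beside 23.5% of all genes, and 9 members were higher on every day 2 array than on any day 1 array, beside 4.92%. In the small subunit of H1-2 the median was 0.53, with 25 of 26 above 0, and in the large subunit 0.38, with 40 of 44 above 0. The members with the smallest p were MRPS33, at 0.99 (adjusted p = 0.128), MRPS21 and MRPS9, at 0.78 (adjusted p = 0.132).

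In H2-3, MRPL4 was the 1 member that rose between days, beside 2.97% of all genes called, 1.74% higher and 1.23% lower. Unadjusted, 5 members had p under 0.05, beside 26.6%, and 2 were higher on every day 2 array than on any day 1 array, beside 2.72%. MRPL4's levels were 2.43, 2.00, 2.48, 1.60 and 1.93 on day 2, against 1.27, 1.38, 1.35, 0.77 and 1.48 on day 1. No day 2 level reached down to a day 1 level, and the change was 0.84 (SE 0.22, adjusted p = 0.0452). It passed in 4 of 11 alternatives, and 2 times when each of the 10 arrays was left out in turn. With the baboon as a replicate block MRPL4 was still the 1 member called (adjusted p = 0.0189), beside 6.62% of all genes. The count was 0 without any of the 5 day 1 arrays or day 2 replicates 2, 3 or 5, beside 0.104 to 2.31% of all genes. It was 4 without day 2 replicate 1, beside 17.7%. In H1-2 MRPL4 had 2.46, 2.43, 2.53 and 2.29 on day 2, against 1.64, 1.78, 1.77 and 1.63 on day 1, also without overlap and without passing the test.

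The days were also paired animal by animal, by the baboon numbers in the titles alone. In H1-2 each baboon's day 1 deviations from the group mean correlated more with another animal's day 2 array than with its own. For baboon 4 the values were 0.62 and 0.06. Baboon 1 of H2-3 did the same, at 0.13 and 0.05. The median change of the 71 members between days was 0.68, -0.08, 0.45 and 0.69 in the 4 H1-2 baboons. In the 5 H2-3 baboons it was -0.03, 0.24, 0.23, 0.25 and 0.04. Replicate 2 of H1-2 therefore stood apart from its group, with 24 members higher and 47 lower on day 2, whereas 64 or 65 members were higher in the other 3 animals. In all 4 H1-2 baboons 19 members were higher on day 2 (18 without MRPS5), beside 13.6% of all genes. In all 5 H2-3 baboons 6 members were, beside 12.9%. With 4 and 5 animals these counts cannot be set against each other. Day 2 and scan day cannot be told apart in these values.

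**Figure D4:**
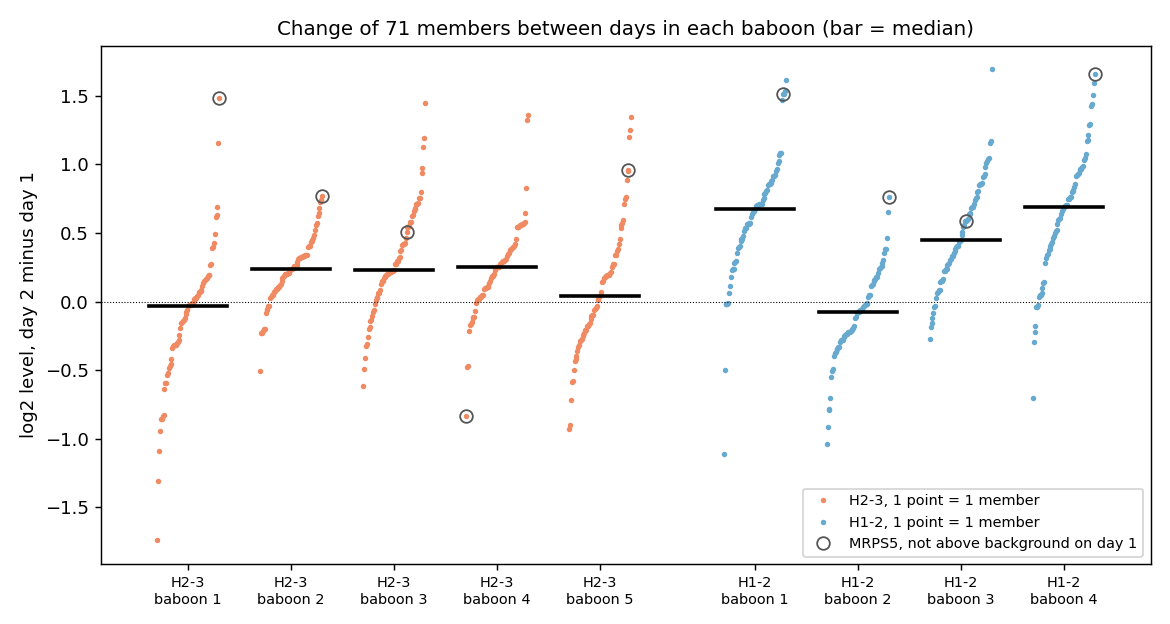
Change from day 1 to day 2 of each of the 71 members in each baboon (log2, day 2 minus day 1), with the 5 H2-3 and the 4 H1-2 animals side by side, a line at the median and an open circle for MRPS5. The H1-2 medians are 0.68, -0.08, 0.45 and 0.69 and the H2-3 medians lie between -0.03 and 0.25. The days are paired by the baboon numbers in the titles.

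The study asked for early transcripts that separate the later HARS categories. Between H2-3 and H1-2, 0 members passed on either day in limma, beside 0% of all genes. On day 1 the median difference was 0.07, with 50 of 71 values above 0, and 2 members had an unadjusted p under 0.05, beside 5.79% of all genes. On day 2 the median was -0.21, with 58 values below 0, and 7 had an unadjusted p under 0.05, beside 9.76%. The members with the smallest p on day 2 were MRPS15, at 0.51, MRPS26, at -0.58, and MRPS27, at -0.44, each with an adjusted p of 0.508. On day 1 they were MRPL16, at 0.45 (adjusted p = 0.783), MRPL50 and MRPL4. Within the slides that held both categories the median differences were 0.02 and 0.14 on day 1, and -0.06 and -0.33 on day 2.

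Several well-known members did not pass in any comparison. MRPS12, at the decoding centre, averaged 2.59 and 2.68 in H2-3 on days 1 and 2 and 2.53 and 2.80 in H1-2, against 2.80 in H0. MRPS22, a mitochondria-specific small subunit protein, averaged 2.18 and 2.22 in H2-3 and 2.00 and 2.31 in H1-2, against 2.11 in H0. MRPL3, a large subunit protein, averaged -0.998 and -0.89 in H2-3 and -1.37 and -0.90 in H1-2, against -0.96 in H0. MRPL12, part of the stalk that recruits translation factors, averaged 1.14 and 1.44 in H2-3 and 1.14 and 1.57 in H1-2, against 1.41 in H0. The 3 genes of the MRPS18 family, related to a single bacterial protein, did not pass either. Their day 1 differences from H0 were 0.35 in H2-3 and 0.10 in H1-2 for MRPS18A, -0.17 and -0.24 for MRPS18B, and -0.26 and -0.60 for MRPS18C. MRPL49 and MRPS36 spread least over the 23 arrays, with SDs of 0.19 and 0.21.

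Other parts of mitochondrial gene expression were described from lists. The 2 genes named from each list had its smallest p over the groups in these data, so they do not stand for the whole list. Each list's share past the threshold, in both directions, stands beside 28.4% of all genes in H2-3 and 8.59% in H1-2. Falls alone were called for 13.5 and 4.42% of all genes. Among 7 ribosome proteins with other names, 2 fell in both categories on day 1 (28.6% in each). PTCD3, a pentatricopeptide repeat protein at the small subunit's message entry, changed by -0.90 in H2-3 (adjusted p = 0.000651) and -0.85 in H1-2 (adjusted p = 0.0145), and GADD45GIP1, a large subunit protein, by -0.50 and -0.63. Of 19 tested genes for ribosome assembly and RNA modification, 7 fell in H2-3 (36.8%) and 2 in H1-2 (10.5%), with medians of -0.39 and -0.32. The RNA helicase DHX30 changed by -0.89 and -0.71. FASTKD2, an RNA-binding assembly factor, fell by 1.00 in H2-3, and its difference of -0.73 in H1-2 did not pass (adjusted p = 0.0516).

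Of 16 mitochondrial aminoacyl-tRNA synthetases, the enzymes that charge transfer RNAs, 6 fell in H2-3 (37.5%) and 2 in H1-2 (12.5%) on day 1, beside the same 28.4 and 8.59% of all genes. VARS2 changed by -1.11 and -0.84, and NARS2 by -0.88 and -0.82. Of 11 genes for mitochondrial DNA and its transcription, 4 fell in H2-3 (36.4%) and 2 in H1-2 (18.2%), with medians of -0.46 and -0.33. TFAM, which packages and transcribes mitochondrial DNA, changed by -1.10 and -0.91. POLRMT, the mitochondrial RNA polymerase, fell by 1.00 in H2-3, and its difference of -0.71 in H1-2 did not pass (adjusted p = 0.0623). Of 15 translation factors, 2 fell and 1 rose in H2-3 (20%) and 0 passed in H1-2. The initiation factor MTIF3 fell by 0.96 in H2-3 (adjusted p = 0.0115), and the elongation factor TUFM did not pass (adjusted p = 0.100). Of 8 tested mitochondrially encoded genes, 0 passed in either category in limma, with medians of 0.05 and -0.11. The largest of these were ND2, at 0.74 in H2-3 (adjusted p = 0.0572), and COX1, at 0.61 (adjusted p = 0.0629).

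The cytosolic ribosomal proteins, which make up the other ribosome of the cell, are given for comparison. On day 1, of 86 tested, 17 fell and 1 rose in H2-3 (20.9%, beside 28.4% of all genes) and 6 fell in H1-2 (6.98%, beside 8.59%), with medians of -0.43 and -0.53. Falls alone were called for 13.5 and 4.42% of all genes. On day 2 in H2-3, 0 fell and 1 rose, beside 14.8% of all genes called, 4.48% lower and 10.3% higher. The median there was -0.31. In H1-2, 0 passed on day 2, beside 0% of all genes. No test compared these lists with each other.

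**Figure D5:**
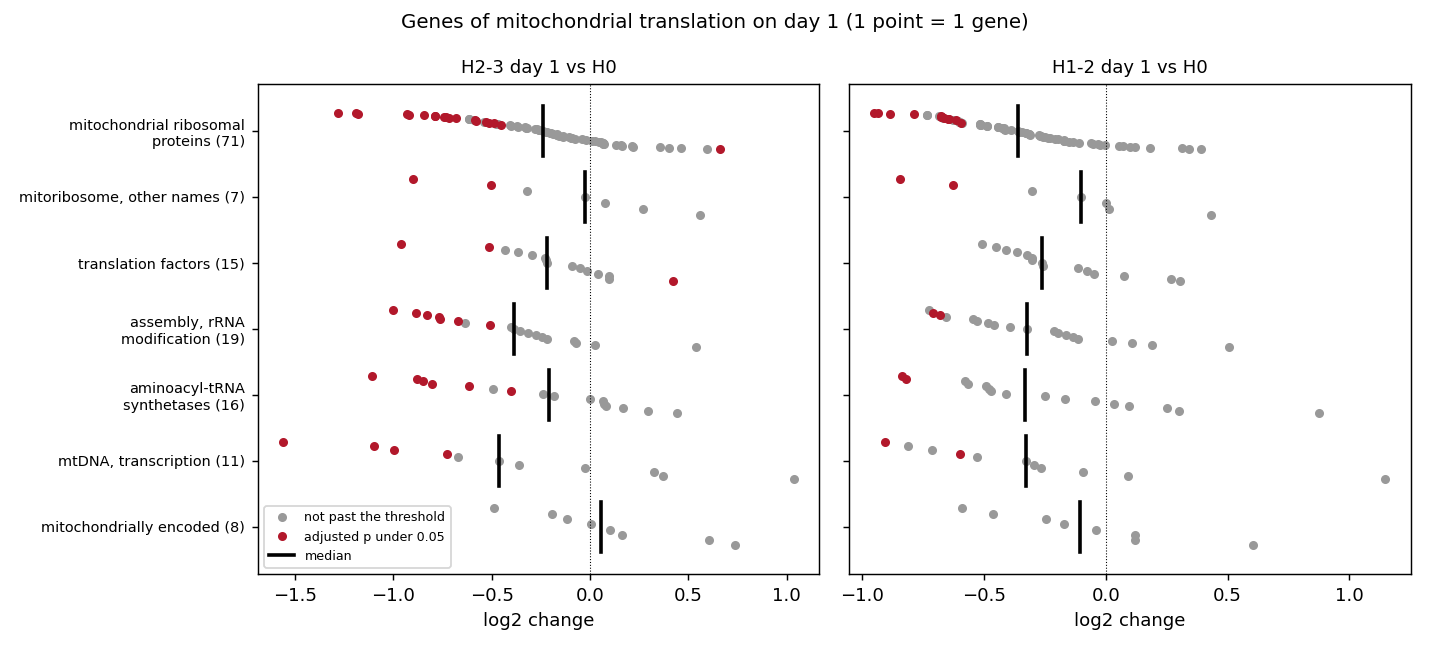
Change against H0 (log2) of every tested gene of the 7 mitochondrial lists on day 1, in H2-3 on the left and in H1-2 on the right, with red points for an adjusted p under 0.05, grey points for the other genes and black bars for list medians. The mitochondrially encoded genes have medians of 0.05 and -0.11 and no red point, and the DNA and transcription genes have medians of -0.46 and -0.33.

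Markers of blood cell types moved with these groups. On day 1, 9 of 10 T cell markers fell in H2-3 and 4 in H1-2, with medians of -2.41 and -1.53. Of 10 NK and cytotoxic markers, 10 and 7 fell, and of 8 B cell markers 6 and 0. Of 9 neutrophil markers, 9 and 8 rose, and of 7 monocyte markers 6 and 3. Of 7 erythroid markers 0 passed in either category in limma. Beside these counts, 28.4% of all genes were called in H2-3 on day 1, 13.5% lower and 15% higher. In H1-2 it was 8.59%, 4.42% lower and 4.18% higher. Lists of 7 platelet, 3 leukocyte and 5 eosinophil and basophil markers were also tested and are not described here. On day 2, 2 T cell, 7 B cell and 3 NK markers fell and 6 neutrophil markers rose in H2-3. There 14.8% of all genes were called, 4.48% lower and 10.3% higher. In H1-2, 0 of any of these markers passed on day 2, beside 0% of all genes.

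The mean level of the 10 T cell markers was -0.14, 2.20, 1.68, 1.09 and 0.85 in H2-3 on day 1 and 1.89, 1.42, 2.58 and 2.10 in H1-2 on day 1, against 3.77, 2.98, 2.85, 3.69 and 3.44 in H0. The mean level of the 9 neutrophil markers was 6.61, 6.21, 5.89, 5.97 and 6.18 in H2-3 and 6.18, 5.60, 5.53 and 6.12 in H1-2, against 2.87, 4.41, 5.48, 4.20 and 3.61 in H0. The irradiated day 1 arrays lay outside the H0 range in both lists. Within H2-3 on day 1, replicate 1 had the lowest T cell level and replicate 5 the next. Their medians of the 71 members were 1.99 and 2.14, the highest of their group. An order within 5 arrays cannot decide how cell types bear on the change against H0. The part of these shifts in cell types in the changes of the ribosomal protein genes was not tested.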

How the data were processed

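The submitters' processing notes and the file headers name Agilent Feature Extraction 10.7.3.1 for reading the arrays. The deposited scanner files hold spot intensity with background subtracted within the array. The deposited value table holds log2 values for 39726 probes, made by the authors from the same arrays. 39637 of them matched a scanner probe, columns correlated with their own array at 0.998 or above with the same direction, and column medians were 4.706 to 4.707. Its exact centring stays unknown, and it served as an alternative.

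Outlier-flagged spots were left out where others of the probe remained, spots were averaged, and each array's 75th percentile of log2 processed signal over non-control probes was subtracted. Probes well above background on at least 4 arrays (27215 of 50599) were kept, and the brightest probe stood for its gene. Of the members, 18 had several probes and 11 several kept ones. MRPS16 and MRPS17 had pairs whose day 1 changes had opposite signs in both categories, and MRPL37 had such a pair in H2-3, none past the threshold. MRPL32, called in H1-2 on day 1, had another kept probe that changed by -0.44 and did not pass (adjusted p = 0.140, limma). Its call was also lost with the mean of all kept probes. Some probe sequences are not reported here.

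One limma 3.58.1 fit (R 4.3.3, statmod 1.5.0) with 5 group means tested 21130 genes, two-sided, with Benjamini-Hochberg adjustment at 0.05. The computation was tested on simulated data. Replicates are baboons per the labels. Baboon numbers in the titles pair the days. Deviations of the same animal on both days correlated at 0.06 to 0.39 in H1-2 and 0.05 to 0.44 in H2-3. The highest correlation with another animal was 0.41 to 0.62 in H1-2, above its own in all 4, and 0.07 to 0.29 in H2-3, above its own in 1 of 5. Replicate arrays correlated at 0.936 to 0.981, and no files were identical. Slides and scan days come from the file headers.

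Members named in the text are, for each comparison, the 5 largest rises and 5 largest falls past the threshold (otherwise the 3 with the smallest p). Extremes of spread and signal and a set of well-known members were named too. From each pathway list, the 2 genes with the smallest p over the groups in these data were named. Other members past the threshold were named after their values were seen. The members and lists were chosen with earlier results of these data known. Alternatives were other scalings, background corrections, probe filters and probe rules, the value table, blocks for slide, scan day and baboon, array weights, fits of the groups compared alone and leaving out arrays. Slide was a fixed term for day 1 against H0 and between categories. For day 2 against H0 and between days it was a random block (correlation 0.07), which does not remove slide. Baboon was a fixed term between days and a random block (correlation 0.25) otherwise.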

Additional observations from a re-analysis of the deposited data

Results flagged for a closer look

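In groups of 4 or 5 arrays, 180 sets of values of members and of the members' median were checked for an array far from the others, and 8 had one. Chance alone gives about 1 in 20. The median of the 71 members was 1.61 on H1-2 day 1 replicate 1, against 1.79 to 1.80 on the other 3 arrays. It was 1.84 on H1-2 day 2 replicate 2, against 2.25 to 2.27, and 1.71 on H2-3 day 2 replicate 1, against 2.07 to 2.14. MRPL50, a mitochondria-specific large subunit protein, stood apart on both of these day 2 arrays, at -0.67 on H1-2 replicate 2, against -0.06 to -0.02 on the others, and at -1.11 on H2-3 replicate 1, against 0.10 to 0.26. MRPS27 was -0.079 on H2-3 day 2 replicate 1, against 0.38 to 0.51 on the others. MRPS26 was 2.80 on H2-3 day 1 replicate 5, against 1.88 to 2.13. MRPL16, a large subunit protein with a bacterial counterpart, was 3.12 on H0 replicate 4, against 2.64 to 2.76.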

How the results depend on the processing

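The direction of every median change in the 8 comparisons was kept under each scaling, background correction, filter, probe rule, block and weight, and 1 median, H1-2 day 2 against H0, changed sign with an array left out (-0.02 to 0.16). With the 75th percentile over probes detected on all 23 arrays the medians were -0.43 (H2-3 day 1), -0.28 (H2-3 day 2) and -0.48 (H1-2 day 1) against H0, while the median of all genes was -0.05, -0.18 and -0.03 in place of 0.14, -0.03 and 0.09. With normexp the H1-2 day 1 median was -0.25. The count of members past the threshold on day 1 was 2 (slide as a block) and 12 (scan day as a block) in place of 19 in H2-3. All genes gave 5.26 and 20.7% there, in place of 28.4%. In H1-2 the count was 5 without a probe filter, beside 3.52% of all genes, in place of 12 beside 8.59%. It was 0 with slide or scan day as a block or the groups compared alone, beside 0.0426, 0.0189 and 0.999%. On day 2 in H2-3 it was 13 (percentile over probes detected on all arrays), 10 (quantile), 8 (normexp), 10 (deposited value table), 8 (probes well above background on all arrays) and 1 (no filter, slide as a block or the groups compared alone), in place of 3. For the higher counts all genes gave 17, 12.6, 15.2, 12.8 and 20.8% in the same order, in place of 14.8%. For the count of 1 they gave 5.73, 10.3 and 7.58%. Between days the count of members was 4 in H1-2 with array weights, beside 11.5% of all genes, in place of 0. In H2-3 it was 6 with array weights, beside 20.4% of all genes, in place of 1. It was 0 under the percentile, quantile, normexp, the value table, no filter, slide as a random block and the groups compared alone. All genes gave 0.79 to 2.9% in those settings. Leaving out single arrays gave 0 to 15 (H1-2 day 1), 1 to 6 (H2-3 day 2), 0 to 2 (H1-2 between days) and 0 to 4 (H2-3 between days). In the same order, 0.0189 to 14.7, 3.92 to 20.8, 0 to 0.857 and 0.104 to 17.7% of all genes were called. MRPS14 in H1-2 on day 1 was 0.10 with slide as a block, where the link of H1-2 and of H2-3 to H0 runs through 1 pair of arrays. The causes were not tested. With the baboon as a replicate block the counts were 21 (H2-3 day 1), 2 (H2-3 day 2) and 13 (H1-2 day 1), beside 28.5, 14.8 and 8.99% of all genes. Between days they were 1 in H2-3 and 0 in H1-2, beside 6.62 and 0.0189%. Of the members' calls this block ended MRPS25 in H2-3 on day 2 (adjusted p = 0.0518, limma) and no other. Over all genes it called 1398 in place of 628 in H2-3 between days and 4 in place of 0 in H1-2. Over all genes, the H1-2 day 1 count of 1816 was 9 with slide and 4 with scan day as a block, the H2-3 day 1 count of 6007 was 1112 with slide as a block, and between days array weights called 2433 in H1-2 in place of 0.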
